A study of Mus musculus with 3 samples.

Results

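The genes of the proteasome subunits were examined in chromatin of mouse alveolar type II (AT2) cells. They were taken as the GRCm38 RefSeq protein-coding genes whose symbols start with Psma, Psmb, Psmc or Psmd followed by a digit, without Psmc3ip, which gave 39 of the 21887 protein-coding genes on assembled chromosomes. AT2 cells, the surfactant-producing epithelial cells of the lung alveolus, came from C57BL/6 mice aged 10 to 12 weeks. They had no genetic change or treatment in the labels, which do not say how many mice were pooled. Chromatin was immunoprecipitated with an antibody against ETV5, an ETS-family transcription factor downstream of FGF and ERK signalling, or against H3K4me3, a histone mark of active promoters, in 1 library each, and an input library is listed beside them.

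The proteasome degrades proteins tagged with ubiquitin. Its core particle is built from rings of alpha (Psma) and beta (Psmb) subunits, and the regulatory particle that caps it holds ATPases (Psmc), which unfold substrates, and non-ATPase subunits (Psmd), which bind and deubiquitinate them. The proteolytic sites lie in the constitutive beta subunits Psmb5, Psmb6 and Psmb7. In cells exposed to interferon-gamma, and in many blood cells, they are replaced by the immune subunits Psmb8, Psmb9 and Psmb10, in that order, which favour peptides for MHC class I presentation.

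A gene was counted as having a peak when the summit lay inside it or within 5 kb of it. The fold enrichment is the authors' deposited value for each peak, the fragment pileup over the local input background, and folds of ETV5 and H3K4me3 are not on a common scale. The ETV5 list came from 5715049 tags and the H3K4me3 list from 34907608, and the median peak held 13 and 185 fragments at its summit. With 1 library per antibody there was no replicate check and no test between groups of genes, and 95% intervals on pileups are exact Poisson intervals that cover counting error only. Among AT2 markers, 10 of 10 genes had H3K4me3, against 4 of 5 AT1, 4 of 6 leukocyte, 2 of 5 endothelial, 1 of 5 airway and 0 of 5 mesenchymal markers. Over all protein-coding genes the share was 59.4%. With the summit within 1 kb of a start or gene end the counts were, in the same order, 8, 4, 2, 1, 1 and 0, where 52.3% of all genes had one.

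ETV5 lay within 5 kb of 37 of the 39 subunit genes, where 63.1% of all protein-coding genes had a peak. H3K4me3 lay within 5 kb of 37 of them as well, where 59.4% of all protein-coding genes did. Both were present at 36 of 39, where 56.6% of all genes had both. Of the 37 with H3K4me3, 36 had ETV5, close to the 95.2% of all genes with H3K4me3. The highest-fold ETV5 peak overlapped an H3K4me3 peak at 36 of the 37 members with ETV5, where 84.5% of all genes with ETV5 had such an overlap. That share is 11663 of 13809 genes, of which only 12380 had H3K4me3 within 5 kb, so it is lowered by genes without the mark. The median highest ETV5 fold was 14.6 at members with a peak, 14.3 at all genes with a peak and 15.7 at those that also had H3K4me3, and 19 of 37 members lay above the median of all genes. The median highest H3K4me3 fold was 42.0 at members and 35.4 at all genes with a peak, and 28 of 37 members lay above the median of all genes. An H3K4me3 fold of 10 was reached by 37 of 39 members, where 53.8% of all protein-coding genes did, and by 37 of the 37 with H3K4me3, where 90.5% of all genes with H3K4me3 did. ETV5 occupancy of the proteasome genes stood near that of other genes with H3K4me3, both in number and in median fold.

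**Figure D1:**
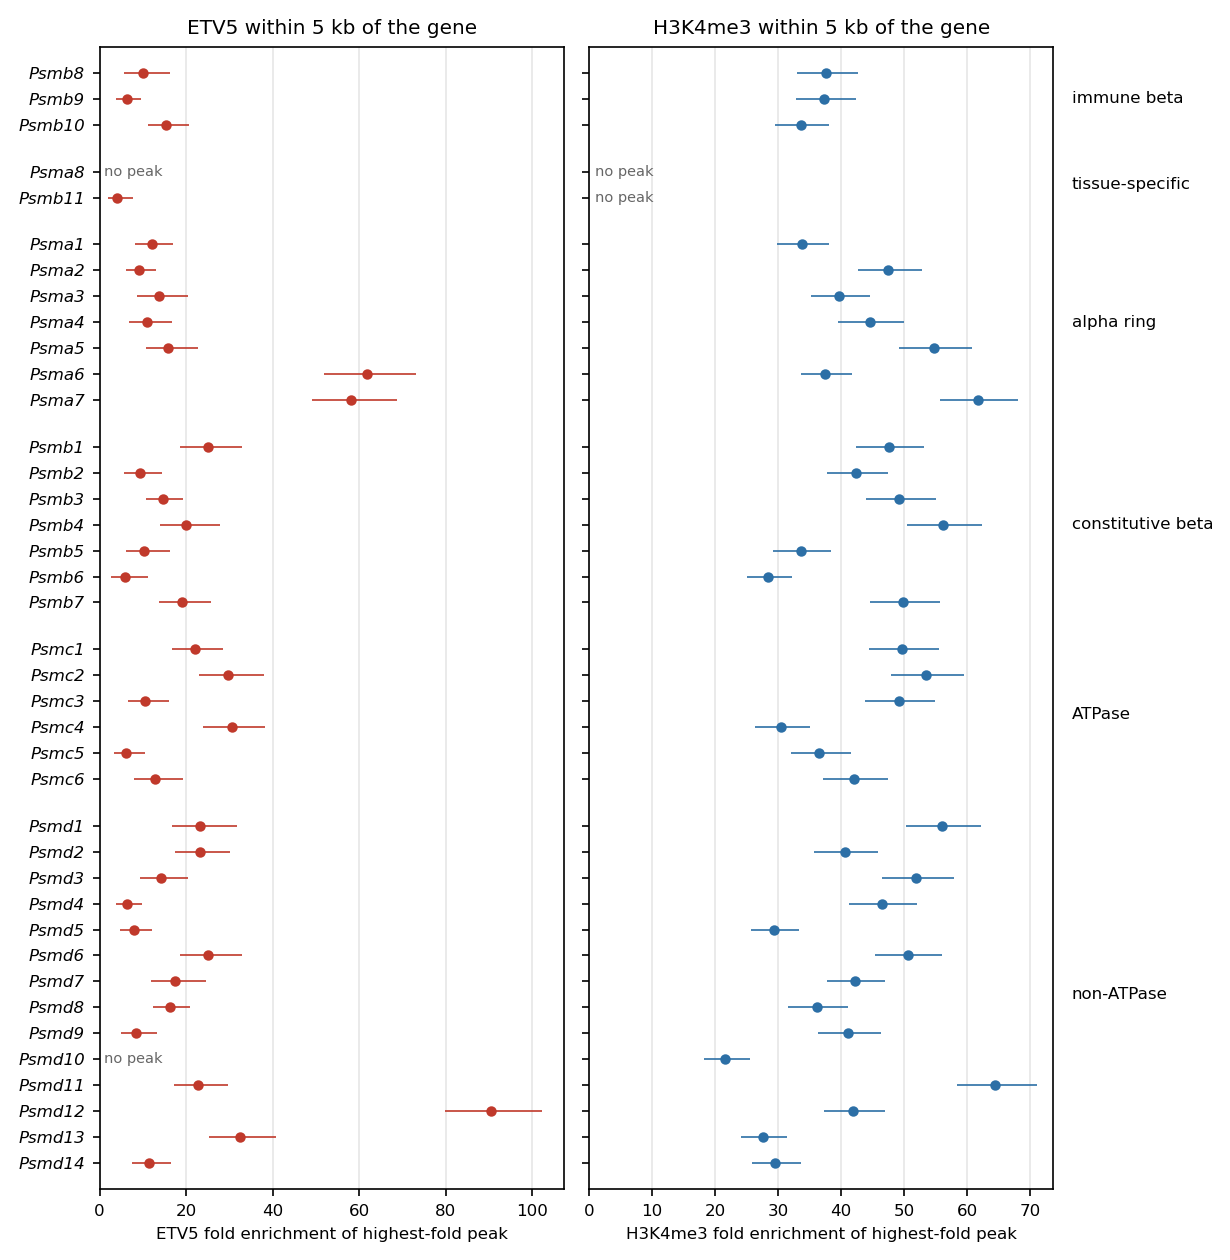
Fold enrichment of the highest-fold ETV5 peak (left) and H3K4me3 peak (right) within 5 kb of each of the 39 proteasome subunit genes, by class, with bars for the 95% Poisson interval of the pileup scaled to the fold. ETV5 spans 4.07 at Psmb11 to 90.6 at Psmd12, whereas H3K4me3 spans 21.6 at Psmd10 to 64.5 at Psmd11.

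Highest folds of the subunit genes ran from 4.07 to 90.6 in ETV5 and from 21.6 to 64.5 in H3K4me3, on scales that are not common. A relatively wider spread in ETV5 was not particular to them. Over all genes with a peak the quartiles were 8.55 and 24.0 for ETV5 and 23.6 and 45.2 for H3K4me3. ETV5 was strongest at Psmd12, which encodes a scaffold subunit of the lid of the regulatory particle. Its peak (chr11:107479175-107480123, GRCm38) reached a fold of 90.6 from 259 fragments at the summit (228 to 293), which lay at -28 bp from the start site, and held rank 87 among the 31165 ETV5 peaks by fold. The alpha subunit gene Psma6 followed with a fold of 61.9 from 138 fragments (116 to 163), at -38 bp from the second of its starts (chr12:55398434-55399402). Psma7, also of the alpha ring, had a fold of 58.2 from 142 fragments (120 to 167), at -122 bp (chr2:180041719-180043418). These 3 members were the ones above the 90th percentile of all genes with a peak, a fold of 38.9. Next came the lid subunit gene Psmd13 (32.5), the ATPase genes Psmc4 (30.6) and Psmc2 (29.8), the lid subunit gene Psmd6 (25.01) and Psmb1 (25.01), a beta subunit without a proteolytic site. The Psmb1 value belongs to a peak 16 bp from the end of Tbp, the gene of the TATA-binding protein, and the peak at the end of Psmb1 itself had a fold of 15.9. The Psmc2 peak lay 66 bp from the end of Dnajc2, and the peak at the second Psmc2 start had a fold of 18.2. The Psma7 summit was nearer to the end of Ss18l1 (103 bp) than to Psma7. When each peak was given only to the gene that held its summit or lay nearest to it, Psma7, Psmd13, Psmc5 and Psmb11 had no ETV5 peak left.

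The promoters of the 3 members with the strongest ETV5 are shown from RefSeq (GRCm38.p6), from 250 bases before to 50 bases after the start, 5′ to 3′ in gene orientation. Capitals mark CCGGAA, a high-affinity sequence known for ETS factors, or CCGGAAGT, on either strand. Psmd12 (chr11:107479278-107479577, plus strand) holds CCGGAAGT, read on the opposite strand, 14.5 bp from the ETV5 summit. Psma6 (chr12:55398575-55398874, plus strand, the second start) holds 4 CCGGAA matches, the nearest 12.5 bp from the summit. Psma7 (chr2:180042415-180042714, minus strand) holds none, which says only that these letters are not in this window.
Psmd12: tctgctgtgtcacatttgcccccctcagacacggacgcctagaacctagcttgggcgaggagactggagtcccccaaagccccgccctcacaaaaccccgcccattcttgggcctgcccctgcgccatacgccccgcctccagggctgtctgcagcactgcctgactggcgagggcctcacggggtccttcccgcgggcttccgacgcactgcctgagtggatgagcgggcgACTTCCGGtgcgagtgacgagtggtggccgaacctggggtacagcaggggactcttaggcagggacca
Psma6: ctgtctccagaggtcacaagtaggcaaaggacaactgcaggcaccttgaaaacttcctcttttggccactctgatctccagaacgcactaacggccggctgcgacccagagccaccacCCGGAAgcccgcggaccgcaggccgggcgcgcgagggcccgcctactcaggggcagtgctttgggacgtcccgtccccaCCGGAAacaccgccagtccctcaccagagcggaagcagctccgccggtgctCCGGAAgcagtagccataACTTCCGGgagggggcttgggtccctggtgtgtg
Psma7: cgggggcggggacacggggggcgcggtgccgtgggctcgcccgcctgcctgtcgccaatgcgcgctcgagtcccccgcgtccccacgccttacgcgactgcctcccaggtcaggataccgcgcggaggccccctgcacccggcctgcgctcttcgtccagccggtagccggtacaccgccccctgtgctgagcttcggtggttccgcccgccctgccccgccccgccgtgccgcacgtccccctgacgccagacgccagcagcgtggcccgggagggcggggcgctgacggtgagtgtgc

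At the low end, the 5 members with the weakest ETV5 within 5 kb were Psmb11 (4.07), Psmb6 (5.91), Psmc5 (6.18), Psmb9 (6.30) and Psmd4 (6.39), which encodes a ubiquitin receptor. Counting only peaks within 1 kb of a start, Psma2 (5.19) and Psmb8 (5.88) lay below Psmb6, and Psmb11 had no peak. Psmb6 rested on 9 fragments (interval 4.12 to 17.1) and Psmc5, an ATPase gene, on 13 (6.92 to 22.2). Their intervals lie far from that of Psmd12, so the spread within the family exceeded counting error. H3K4me3 was also low at Psmb6, with a fold of 28.4, while the folds were 36.5 at Psmc5, 37.3 at Psmb9 and 46.4 at Psmd4.

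By part of the particle, the median ETV5 fold was 13.6 over the 7 alpha ring genes, 14.6 over the 7 constitutive beta ring genes, 17.5 over the 6 ATPase genes and 17.5 over the 13 of 14 non-ATPase genes with a peak. Ranges overlapped throughout, from 9.16 to 61.9 in the alpha ring, 5.91 to 25.01 among constitutive beta genes, 6.18 to 30.6 among ATPases and 6.39 to 90.6 among non-ATPases. The 9.16 of Psma2 and the 25.01 of Psmb1 belong to peaks nearer to AW209491 and Tbp. Within 1 kb of a start or gene end, the alpha ring spanned 5.19 to 61.9 and the constitutive beta genes 5.91 to 19.98. Within the non-ATPase genes, Psmd5, Psmd9 and Psmd10 encode chaperones of regulatory particle assembly rather than stable subunits. ETV5 reached a fold of 7.89 at Psmd5 and 8.46 at Psmd9 and gave no peak at Psmd10, and none of the 3 reached a fold of 10. Of the 11 other non-ATPase genes 10 did, all but Psmd4, with a median of 22.8. The 6 assembly genes listed outside the subunit family all reached a fold of 10, with a range of 10.2 to 37.1. Their median of 12.7 lay below the 14.3 of all genes with a peak. The lowest, Psmg4, had 24 fragments (15.4 to 35.7), and Psmd5 had 20 (12.2 to 30.9), so these intervals overlap. Over all members 28 of 39 reached that fold, where 42.6% of all protein-coding genes did, and 28 of the 37 with H3K4me3, near the 70.6% of all genes with H3K4me3.

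H3K4me3 was highest at Psmd11, a lid scaffold subunit gene, with a fold of 64.5 and a pileup of 410 fragments, and it ranked 53rd of the 15134 H3K4me3 peaks. Psma7 had 61.6, the beta subunit gene Psmb4 had 56.1 and Psmd1, a base scaffold gene, had 56.0. Psma5 was next with 54.7, from the promoter of its neighbour Sort1, while the peak at the Psma5 start had 39.4. The lowest folds were at Psmd10 (21.6), Psmd13 (27.6), Psmb6 (28.4), Psmd5 (29.3) and Psmd14 (29.6), the gene of the deubiquitinase of the lid. Psmd13 thus combined one of the highest ETV5 folds with one of the lowest H3K4me3 folds of the family.

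The 3 immune subunit genes carried both ETV5 and H3K4me3 in these cells. Psmb9 had an ETV5 peak of fold 6.30 and 21 fragments (interval 13.0 to 32.1), with its summit 32 bp inside the gene. At Psmb8 the peak at the start site had a fold of 5.88 and 11 fragments, with its summit 303 bp inside the gene. A stronger peak within 5 kb of Psmb8, of fold 10.0 and 16 fragments (9.15 to 26.0), lay 333 bp inside the near end of Tap2. Tap2 and Tap1 encode the transporter that carries peptides to MHC class I molecules. Psmb10 had a fold of 15.3 and 43 fragments (31.1 to 57.9), with the summit 1296 bp inside the gene and none within 1 kb of its start. The promoter table gives 1 start for Psmb10, and other starts of this gene were not analysed here. H3K4me3 lay at all 3 starts, with folds of 31.7 at Psmb8, 37.3 at Psmb9 and 33.6 at Psmb10 and summits 315, 148 and 444 bp inside the genes.

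The promoters of the 3 immune genes, and of the constitutive genes Psmb5 and Psmb6, are shown in the same way. They are Psmb8 (chr17:34197945-34198244, plus strand), Psmb9 (chr17:34187281-34187580, minus strand), Psmb10 (chr8:105938343-105938642, minus strand), Psmb5 (chr14:54617946-54618245, minus strand) and Psmb6 (chr11:70525107-70525406, plus strand). Psmb7 had no start in the promoter table. None of those shown holds CCGGAA in this window, and neither does that of Psma7, with an ETV5 fold of 58.2. The ETV5 summits nearest to the starts of Psmb8 (303 bp) and Psmb10 (1296 bp) lie outside the window. It does not show the sequence under those peaks.
Psmb8: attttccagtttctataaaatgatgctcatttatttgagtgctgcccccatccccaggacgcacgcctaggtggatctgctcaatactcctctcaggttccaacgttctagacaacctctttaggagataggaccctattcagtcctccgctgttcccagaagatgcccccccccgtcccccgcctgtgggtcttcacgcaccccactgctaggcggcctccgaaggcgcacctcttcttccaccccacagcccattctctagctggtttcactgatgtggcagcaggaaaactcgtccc
Psmb9: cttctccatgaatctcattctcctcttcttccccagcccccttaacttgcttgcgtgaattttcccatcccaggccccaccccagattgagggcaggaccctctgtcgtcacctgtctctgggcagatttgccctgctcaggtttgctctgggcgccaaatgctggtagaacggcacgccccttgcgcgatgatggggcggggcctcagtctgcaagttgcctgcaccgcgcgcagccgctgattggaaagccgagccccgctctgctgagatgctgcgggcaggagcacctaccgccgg
Psmb10: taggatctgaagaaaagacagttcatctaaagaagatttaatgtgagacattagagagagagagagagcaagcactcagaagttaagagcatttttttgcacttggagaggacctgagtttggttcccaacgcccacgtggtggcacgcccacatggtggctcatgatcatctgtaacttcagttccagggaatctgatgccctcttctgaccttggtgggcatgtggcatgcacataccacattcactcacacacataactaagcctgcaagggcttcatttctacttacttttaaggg
Psmb5: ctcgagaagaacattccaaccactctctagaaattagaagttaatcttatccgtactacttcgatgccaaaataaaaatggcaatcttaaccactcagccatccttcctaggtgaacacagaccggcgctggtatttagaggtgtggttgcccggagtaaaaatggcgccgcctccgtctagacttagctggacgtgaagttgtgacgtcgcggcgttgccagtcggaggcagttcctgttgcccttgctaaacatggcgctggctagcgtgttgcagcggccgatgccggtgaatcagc
Psmb6: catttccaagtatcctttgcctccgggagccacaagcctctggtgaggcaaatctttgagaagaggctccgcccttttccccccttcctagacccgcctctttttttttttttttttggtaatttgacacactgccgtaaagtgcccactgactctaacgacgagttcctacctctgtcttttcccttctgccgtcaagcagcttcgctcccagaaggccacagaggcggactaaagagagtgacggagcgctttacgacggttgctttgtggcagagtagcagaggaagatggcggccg

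**Figure D2:**
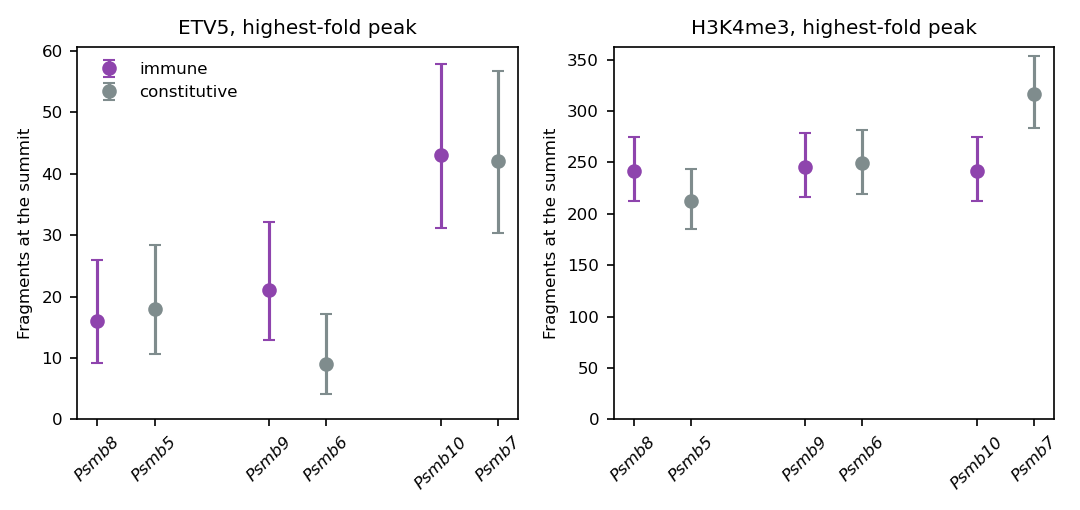
Fragments at the summit of the highest-fold ETV5 peak (left) and H3K4me3 peak (right) within 5 kb of each immune subunit gene and the constitutive gene whose product it replaces, with exact 95% Poisson intervals. In ETV5 the intervals of each pair overlap, and in H3K4me3 the interval of Psmb10 (242 fragments) lies below that of Psmb7 (317).

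Each immune gene was set beside the constitutive gene whose product it replaces. For ETV5, Psmb8 had 16 fragments and Psmb5 had 18, a ratio of 0.889 (interval 0.424 to 1.85), with folds of 10.0 and 10.4. Psmb9 had 21 fragments and Psmb6 had 9, a ratio of 2.33 (1.02 to 5.79), while the folds were 6.30 and 5.91. Psmb10 had 43 fragments and Psmb7 had 42, a ratio of 1.02 (0.653 to 1.61), with folds of 15.3 and 19.1. The Psmb9 pileup exceeded that of Psmb6 by more than counting error, although their folds differed little. With the window of 5 kb no pair was separated in ETV5 fold by as much as 1.5 times, where the Psmb8 value is that of the peak in Tap2, and the intervals of the Psmb8 and Psmb10 ratios include both a higher and a lower immune gene. Counting only peaks within 1 kb of a start site, Psmb8 had 11 fragments against 18 at Psmb5 (ratio 0.611, 0.261 to 1.37), with folds of 5.88 and 10.4, a fold ratio of 0.567, and Psmb10 had no peak, against 42 fragments at the end of Psmb7. The ratio of the median immune to the median constitutive fold was 0.968, and 0.587 with that count. With a window of 20 kb the highest folds were 10.0 at Psmb9 and 22.6 at Psmb6.

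For H3K4me3, Psmb8 had 242 fragments and Psmb5 had 213, a ratio of 1.14 (0.941 to 1.37), and at the Psmb8 start itself the pileup was 201 (ratio 0.944, 0.774 to 1.15). Psmb9 had 246 and Psmb6 had 249, a ratio of 0.988 (0.825 to 1.18). Psmb10 had 242 and Psmb7 had 317, a ratio of 0.763 (0.643 to 0.905). In pileup the Psmb10 difference exceeded counting error, and the others did not. The folds were 37.6 at Psmb8 and 33.6 at Psmb5, and 33.6 at Psmb10 and 49.9 at Psmb7. At Psmb9 the fold was 37.3 and at Psmb6 28.4, a ratio of 1.31, although their pileups were close. By ETV5 fold within 5 kb, Psmb8 stood above 7, Psmb9 above 2 and Psmb10 above 16 of the 33 constitutive genes with a peak. With peaks at the start alone, Psmb8 stood above 1 and Psmb9 above 3 of 33, and Psmb10 had no peak. In ETV5 the immune genes thus lay in the lower part or the middle of the constitutive range. Of the 32 other constitutive genes, Psmb5 stood above 7, Psmb6 above 0 and Psmb7 above 19. A low place was thus also found at Psmb5 and Psmb6. By H3K4me3 fold within 5 kb, Psmb8 stood above 11 (6 at its start), Psmb9 above 10 and Psmb10 above 7 of 34.

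Blood cells are a known source of immune subunits, so the leukocyte markers stand beside these values. Ptprc, which defines leukocytes, and Cd3e, which defines T cells, had no H3K4me3 peak. Within 1 kb of a start or gene end, Cd14 had a fold of 41.7 and Spi1 a fold of 3.99. The peaks near Cd68 (26.3) and Coro1a (48.1) and the highest near Spi1 (5.39) lay farther away. The part of other cells in the H3K4me3 of Psmb8, Psmb9 and Psmb10 was not tested.

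**Figure D3:**
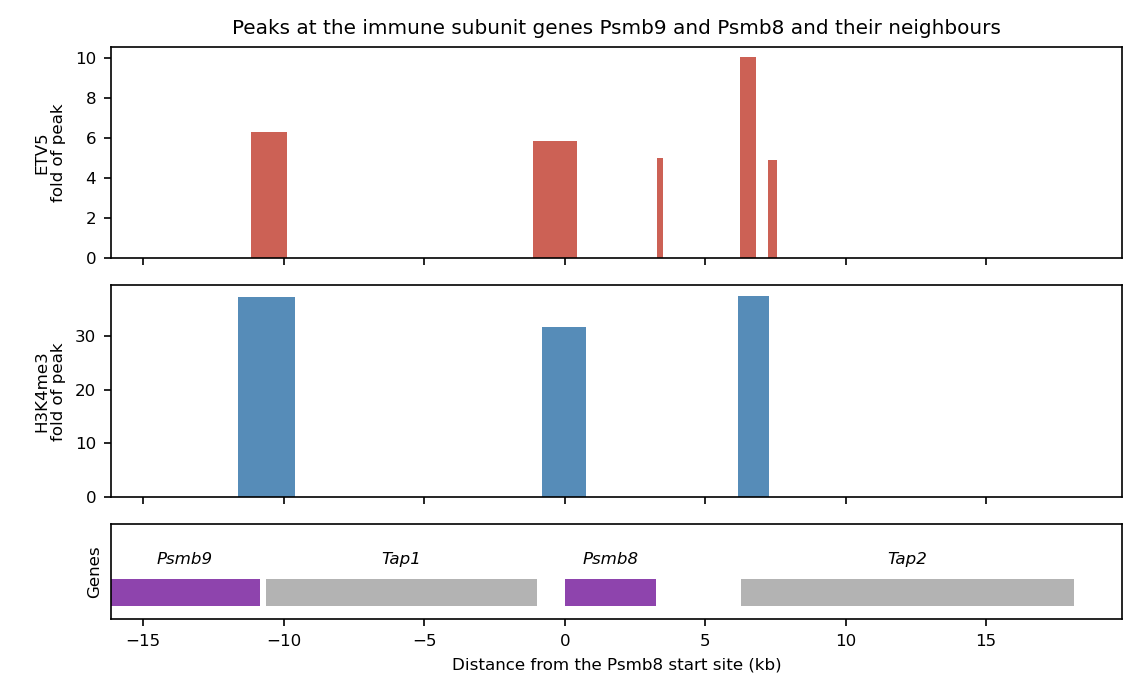
ETV5 peaks (top) and H3K4me3 peaks (middle) drawn at their width and fold over Psmb9, Tap1, Psmb8 and Tap2 (bottom), by distance from the Psmb8 start site in kb. Each of the 3 H3K4me3 peaks overlaps ETV5, with folds of 6.30, 5.88 and 10.0 for the strongest.

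Psmb9 and Psmb8 lie beside each other in the MHC on chromosome 17, interleaved with Tap1 and Tap2. The Psmb9 and Tap1 starts are 226 bp apart on opposite strands, and a single ETV5 peak (chr17:34187010-34188316) and a single H3K4me3 peak (chr17:34186581-34188579) covered both, so their signal cannot be divided between these genes. Another pair of peaks lay over the Psmb8 start (ETV5, chr17:34197065-34198622), and a further pair over the near end of Tap2 (ETV5, chr17:34204426-34205010). A small ETV5 peak of fold 4.995 and 8 fragments lay just past the Psmb8 end, outside H3K4me3, and one of fold 4.90 lay at the edge of the H3K4me3 peak in Tap2.

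Among the tissue-specific subunit genes, Psma8, which encodes the testis alpha subunit, had neither ETV5 nor H3K4me3 within 5 kb. Psmb11, the beta subunit of thymic epithelium, lies close to Psmb5 on chromosome 14 and had no H3K4me3 either. Its ETV5 peak of fold 4.07 and 9 fragments (interval 4.12 to 17.1) had its nearest gene end in Cdh24, 911 bp away, and was the one highest-fold peak among members that lay outside H3K4me3. Psmd10, on the X chromosome, was the one member with H3K4me3 and without ETV5.

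At the gene starts the 2 marks had a regular layout. An ETV5 summit lay within 1 kb of a start site of 35 of the 39 members, where 54.2% of all protein-coding genes had one, and an H3K4me3 summit did so at 37, where 52.3% of all genes had one. Of these 37, 35 had ETV5 at the start as well, near the 93.5% of all genes with H3K4me3 at the start. For 7 members with no strand in the promoter table the nearer gene end was used. Over the 30 member promoters with known strand and both marks, the median ETV5 summit lay 2.5 bp from the start (quartiles -71.8 and 88.3), and the median H3K4me3 summit lay 227 bp into the gene (194 and 300). Over 10188 such promoters of all genes the medians were 37.0 bp for ETV5 and 211 bp for H3K4me3. The H3K4me3 summit lay farther into the gene than the ETV5 summit at 28 of the 30 member promoters, all but Psmd9 and the first of the 2 Psmc2 starts, and at 70.6% of all. The median distance between the summits was 222 bp at members and 139 bp at all promoters.

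**Figure D4:**
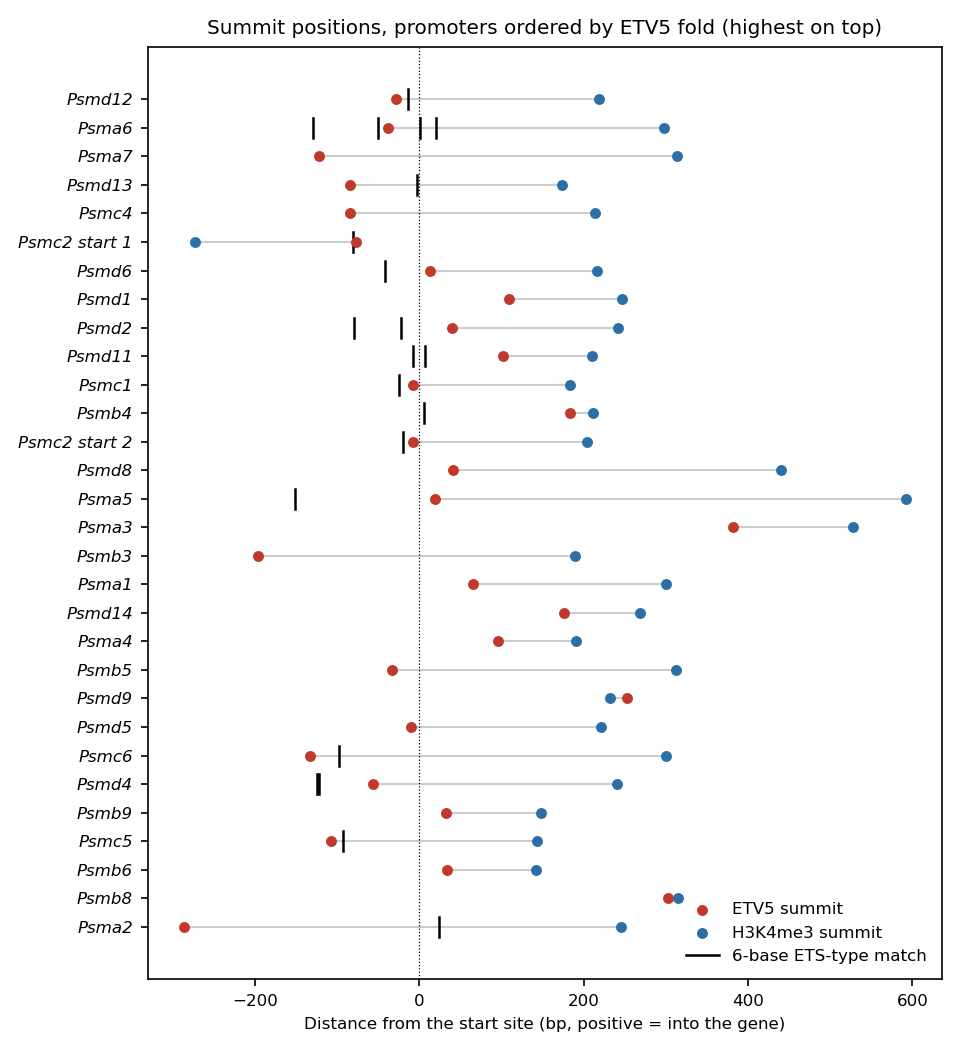
Position of the ETV5 summit (red) and the H3K4me3 summit (blue) relative to the start site in bp at 30 promoters of proteasome subunit genes, with black ticks for 6-base ETS-type matches, ordered by ETV5 fold. Blue lies to the right of red at 28 promoters, and Psmc2 appears with both of its starts.

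At 6 members a neighbour on the opposite strand had a start within 1 kb, and the share of all genes with such a neighbour was not counted. The partners were Ss18l1 for Psma7 (starts 19 bp apart), Sirt3 for Psmd13 (85 bp to the nearer of its starts), Ftsj3 for Psmc5 (101 bp), Atg4a for Psmd10 (196 bp), Mrpl32 for Psma2 (205 bp) and Tap1 for Psmb9 (226 bp). ETV5 fold at these starts covered most of the family's range, with 58.2 at Psma7, 32.5 at Psmd13, 6.30 at Psmb9, 6.18 at Psmc5, 5.19 at Psma2 and no peak at Psmd10. Of the 37 highest-fold ETV5 peaks, 11 were nearer to an end of another gene, a share that was not counted over all genes. Among them were those counted for Psma2 (9.16, at AW209491), Psmb3 (14.6, at Pcgf2) and Psmc6 (12.8, at Styx). The highest-fold peaks within 1 kb of the starts of these 3 genes had folds of 5.19, 13.0 and 7.79. That of Psma2 was in turn nearer to Mrpl32 (82 bp), and the peak nearest to the Psma2 start had a fold of 3.14. In all, 62 distinct ETV5 peaks lay within 5 kb of members and 53 of them overlapped H3K4me3, where 53.9% of the 26707 ETV5 peaks within 5 kb of any protein-coding gene did. That larger set includes peaks at genes with no H3K4me3.

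The 300-base promoters of this kind were searched over all genes for ETS-type letters on both strands. The table held 34 promoters of 32 members. The core GGAA occurred in all 34 and in 95.7% of the 21263 promoters of protein-coding genes, so it did not separate them. The longer CCGGAA occurred in 16 of 34 member promoters (47.1%), in 18.7% of all promoters and in 30.0% of those with an ETV5 summit within 1 kb. Its extension CCGGAAGT, which is contained in the count of CCGGAA, occurred in 7 of 34 (20.6%), in 5.15% of all and in 9.03% of those with ETV5. Those 7 were the promoters of Psmd12, Psma6, Psmd13, Psmc1 and Psmd6 and both of Psmc2.

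Among members, those with CCGGAAGT had the highest median ETV5 fold, while those with only CCGGAA and those with neither had similar medians. The 7 member promoters with CCGGAAGT all had ETV5 within 1 kb, with a median fold of 29.8 (range 18.2 to 90.6), and over all promoters with it 93.8% had ETV5, with a median of 27.5. The 9 with only CCGGAA had ETV5 in 8 cases with a median of 11.8 (5.19 to 23.2), against 82.6% and 18.8 over all promoters of that class. The 18 with neither had it in 15 cases with a median of 11.4 (5.88 to 58.2), against 46.0% and 11.4 over all. The weakest member with CCGGAAGT, the second Psmc2 start at 18.2, stood above 12 of the 15 with neither, the exceptions being Psma7, Psmc4 (30.6) and Psmd1 (23.3). Psmd10 had CCGGAA at 2 places, H3K4me3 of fold 21.6 and no ETV5 peak. Where a member promoter had both, the summit lay at a median of 55.5 bp from the nearest CCGGAA, and within 50 bp in 7 of 15 promoters. Over 3405 such promoters of all genes these were 62.5 bp and 44.4%.

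**Figure D5:**
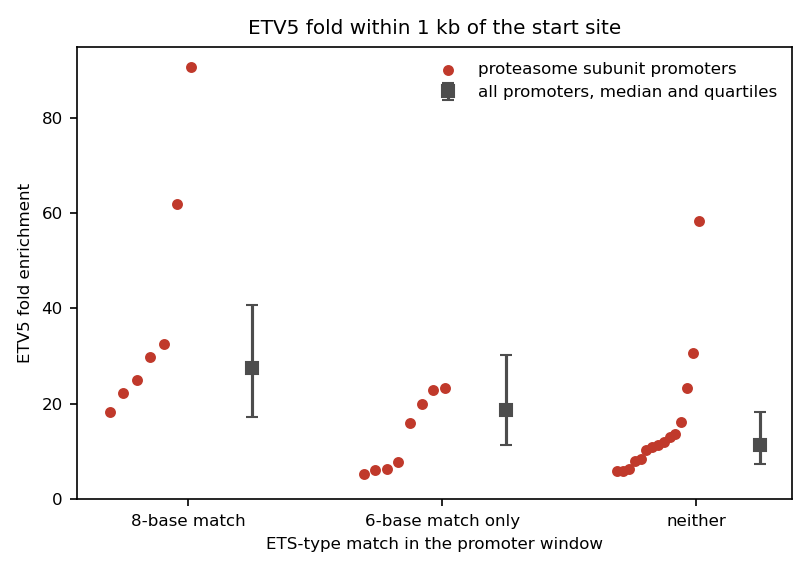
ETV5 fold within 1 kb of the start for proteasome subunit promoters with ETV5 (red points) and for all promoters of protein-coding genes with ETV5 (black squares, median with quartiles), by the longest ETS-type match in the 300-base promoter. Members with the 8-base match range from 18.2 to 90.6 around a median of 29.8, and those with neither have a median of 11.4.

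Other letters known for control of these genes were searched in the same way. TGANNNNGC, the antioxidant response element type bound by CNC factors such as Nfe2l1, the activator of proteasome genes when proteasome activity falls, occurred in 20 of 34 member promoters (58.8%), in 41.7% of all and in 42.4% of those with ETV5. It was present in the windows of Psmb8, Psmb9, Psmb5 and Psmb6 and not in that of Psmb10. The interferon-stimulated response element type, GAAA repeated after any 2 bases, occurred in 3 member promoters (8.82%), those of Psmb3, Psmd4 and Psmd9, in 3.35% of all promoters and in 2.43% of those with ETV5. None of the 3 immune genes held it. CCAAT, bound by NF-Y, occurred in 13 (38.2%), in 38.2% of all promoters and in 37.4% of those with ETV5. GGGA and CC with any 4 bases between, of NF-kappaB type, occurred in 8 (23.5%), in 23.0% of all and in 28.2% of those with ETV5. GCGC and TGCGC with any 1 base between, the type bound by the nuclear respiratory factor NRF1, occurred in 6 (17.6%), in 6.38% of all and in 10.8% of those with ETV5. Median GC content was 56.0% in member promoters and 56.3% in all.

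Beyond the subunits, 26 of 27 listed genes for activators, assembly, associated enzymes, ubiquitin shuttles and regulators of the proteasome matched the gene table, and 26 of 26 had both ETV5 and H3K4me3, where 56.6% of all genes had both and 95.2% of genes with H3K4me3 had ETV5. Their median ETV5 fold was 21.0, against 15.7 over all genes with both. A fold of 10 was reached by 25 of 26, where 70.6% of all genes with H3K4me3 and 42.6% of all genes did. The oxidative stress regulator Nfe2l2 was highest at 75.2, followed by the ubiquitin receptor Adrm1 at 61.0 and the activator Psme4 at 47.0. Nfe2l1 had 33.8. Psme1 and Psme2, which form the interferon-induced activator, had 20.03 and 21.9, although the Psme1 peak lay at -2018 bp from its start, nearer to Fitm1, and the peak at the start had 9.37. The Psme2 peak lay at -624 bp from its start and 12 bp from the end of Rnf31. Lowest was the shuttle gene Ubqln2 on the X chromosome, at 5.55 from 8 fragments, with an H3K4me3 fold of 16.4.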

How the data were processed

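The authors called peaks in each library separately. Their caller was MACS2 (2.1.0.20150420), as the submitters' processing notes and the file headers name it, run at a q-value cutoff of 0.05 and with at most 1 tag kept per position. The name of the aligner was not given in the sources used here. Per the file headers the input behind the ETV5 list (27495486 tags) has another name than the listed input sample, while that behind H3K4me3 (44758677 tags) matches it. The pileup is, per the file headers, the signal of fragments at the summit, and all deposited pileups were whole numbers. The fold enrichment is the authors' deposited ratio of pileup to local background. The −log10 q-value and −log10 p-value are also the authors' deposited values, and only the q-value was used, as a threshold of an alternative. Intervals and pileup ratios were computed from the pileups.

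The submitters' processing notes name mm9, but coordinates are those of GRCm38: 60.7% of H3K4me3 summits lay within 1 kb of a start site of the GRCm38.p6 promoter table. Genes, start sites, strand and sequences came from RefSeq tables. Python 3.11.15, numpy 2.4.6, pandas 2.3.3, scipy 1.17.1 and matplotlib 3.10.9 were used, and the steps were tested on simulated data. Libraries were grouped by antibody. Named are the immune, catalytic and tissue-specific genes, members without a peak, the 8 highest and 5 lowest ETV5 folds and the 5 highest and 5 lowest H3K4me3 folds; others were chosen after their values were seen. One marker gene is not reported here. Members and lists were chosen with earlier results of these data known.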

Additional observations from a re-analysis of the deposited data

How the results depend on the processing

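Windows of 1 and 20 kb, −log10 q of at least 10, fold of at least 10, peaks given to one gene only, distance to the start site, and a summit within 1 kb of a start (chosen after seeing the data) were tried. ETV5 was then found at 28 to 37 subunit genes and H3K4me3 at 37 to 38, and ETV5 at 24 to 26 of the associated genes. The median ETV5 fold ranged from 14.1 to 19.1 and the median H3K4me3 fold from 40.9 to 46.1. The highest-fold ETV5 peak overlapped H3K4me3 at 28 to 36 members, and at 36 when 50 percent of its width had to overlap. The ratio of immune to constitutive ETV5 fold ranged from 0.525 with the window of 20 kb to 0.968, and that of H3K4me3 fold from 1.00 to 1.12. Promoters with an ETS sequence numbered 34 with GGAA, 16 with CCGGAA and 7 with CCGGAAGT, since each search is contained in the one before. Of the values of single members, 22 of 239 for ETV5 and 19 of 259 for H3K4me3 moved beyond their counting interval. Members that a setting left without a peak are not in these totals. The thresholds on q and fold cannot change a highest fold that passes them, so those values could hardly move. No paired analysis was possible because each antibody has 1 library. Low ETV5 depth limits which weak peaks were called.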
